A study of Schizosaccharomyces pombe with 3 samples.

Results

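The genes described here are the fission yeast (Schizosaccharomyces pombe) genes named sec, erv, cog or trs followed only by digits. They numbered 61 of the 5113 protein-coding genes on the nuclear chromosomes of the reference annotation, with 23 on chromosome I, 27 on chromosome II and 11 on chromosome III. The rule itself uses symbols only and no measured value. Annotated products were checked against the name. In 57 of the 61 genes the product belongs to protein translocation, vesicle traffic or its regulation, while 4 share only the letters of the symbol: trs1 encodes a threonine tRNA ligase, erv1 and erv2 encode sulfhydryl oxidases, and sec59 encodes dolichol kinase, which serves protein glycosylation.

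The secretory pathway carries proteins from the endoplasmic reticulum (ER) through the Golgi to the plasma membrane. Proteins enter the ER through the translocon, leave in vesicles coated by COPII, return in vesicles coated by COPI, and are passed on by tethering complexes and SNARE proteins that dock and fuse membranes. RNA polymerase II (Pol II) transcribes these genes, and Mediator is the large complex that links sequence-specific activators to Pol II at promoters.

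The series holds 3 chromatin immunoprecipitation sequencing libraries, 1 per group, from strain 972 h- collected in log phase in YEA medium with 2% glucose and no treatment. The bead control was chromatin of cells without a TAP tag, exposed to beads alone. For Pol II, chromatin of untagged cells was precipitated with 4H8, which recognises the C-terminal domain of the largest Pol II subunit, on Protein G beads. For the Med7 library, cells carried a TAP tag on Med7, a Mediator subunit, and chromatin was taken on IgG Sepharose. The control differs from the Med7 library in both tag and beads, so effects of these and of Med7 itself cannot be told apart. With 1 library a group, no difference has a replicate check and no p-value is given: each fold compares 2 libraries, and its 95% interval covers counting error only, since reads amplified by PCR are not independent molecules. Nuclear reads outside the ribosomal DNA, the base of the normalised read counts (RPM), came to 630825 in the control, 1687058 for Pol II and 696101 for Med7.

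A fold here is the RPM of a ChIP library divided by the bead control's RPM over the same bases. Gene bodies covered the annotated transcript, and promoter windows took in 500 bp before its start and 100 bp after it. High means a fold of at least 2 whose interval lies above 1, and low means a fold of at most 0.5 whose interval lies below 1. A window counted as measured with at least 20 reads in both libraries together and at least 90% of its positions unique in the genome. The median Pol II fold of all genes on this scale was 0.733. Scaling to the median 1 kb bin instead raised the median log2 Pol II fold of all genes by 0.49, so Pol II values were read against that median rather than against 1.

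The 4 measured promoters with the highest Med7 fold are shown first, since the Mediator results start from them. Their rank owes much to low control counts, of 10 to 15 reads a window. They belong to sec24, the cargo-binding subunit of the COPII coat, and to sec66, sec67 and sec62, subunits of the Sec62/Sec63 complex that works beside the translocon. The sequences come from the RefSeq assembly ASM294v3. Each ends at the base before the transcript start and reaches back 250 bases, or to the nearest other transcript where that lies closer. All 4 are on the plus strand. They span chrI:4799345-4799594 for sec24, chrII:1176482-1176731 for sec66, chrI:3924378-3924627 for sec67, and chrI:3603905-3604074, which is 170 bases, for sec62. Capitals mark matches on either strand to 3 motifs: TATAAA, the core of a TATA box, then GTAAACA, read by forkhead factors, and CCAAT, read by the CCAAT-binding complex.
sec24: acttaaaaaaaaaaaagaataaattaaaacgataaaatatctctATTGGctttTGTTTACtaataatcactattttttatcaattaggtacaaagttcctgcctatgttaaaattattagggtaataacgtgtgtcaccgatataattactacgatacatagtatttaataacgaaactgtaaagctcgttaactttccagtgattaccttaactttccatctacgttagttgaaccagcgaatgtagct
sec66: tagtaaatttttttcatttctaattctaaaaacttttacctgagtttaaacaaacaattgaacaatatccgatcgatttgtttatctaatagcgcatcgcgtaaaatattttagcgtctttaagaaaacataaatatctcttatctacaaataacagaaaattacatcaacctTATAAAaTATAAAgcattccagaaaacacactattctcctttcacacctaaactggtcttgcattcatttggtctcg
sec67: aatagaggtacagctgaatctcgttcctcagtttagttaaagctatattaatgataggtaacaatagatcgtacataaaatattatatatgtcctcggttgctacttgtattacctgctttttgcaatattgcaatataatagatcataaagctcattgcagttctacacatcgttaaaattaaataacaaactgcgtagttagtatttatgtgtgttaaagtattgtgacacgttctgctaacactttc
sec62: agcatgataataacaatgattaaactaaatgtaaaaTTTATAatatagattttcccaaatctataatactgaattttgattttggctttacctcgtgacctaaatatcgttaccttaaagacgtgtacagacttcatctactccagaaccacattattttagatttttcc
Among the 5112 promoters with a full stretch of 250 bases, TATAAA on either strand was found in 44.4%, GTAAACA in 14.8% and CCAAT in 35.3%. CAGTCACA, the HomolD box of ribosomal protein genes, was found in 2.62%, and TGACGTCA, read by ATF/CREB factors, in 0.274%. Of the 61 genes, 24 (39.3%) held TATAAA, 12 (19.7%) held GTAAACA, 20 (32.8%) held CCAAT, and 0 held the HomolD box or TGACGTCA. The sec66 sequence has TATAAA at 77 and again at 70 bases before the start, and sec62 has it on the opposite strand. In sec24, GTAAACA and CCAAT both occur on the opposite strand, and sec67 has no match in this stretch. A match describes these letters only and not a bound site.

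Pol II over the secretory genes lay in a narrow band near the genome median. Of the 61 genes, all measured, 1 was high (1.64%) and 4 were low (6.56%), against 6.74% high and 11.6% low among the 4967 protein-coding genes measured. The median fold was 0.792 (log2 -0.34) against 0.733 (log2 -0.45) for all genes. Between 0.5-fold and 2-fold lay 56 of the 61 genes (91.8%), compared with 81.6% of all. The quartiles of the genes were 0.654 and 0.925, inside those of all genes, 0.585 and 0.975. The transcripts of the 61 genes were also longer, with a median of 2441 bp against 1773 bp for all genes. The part played by length in the narrower spread was not tested. Summed over the 61 bodies, the libraries held 8687 control and 19714 Pol II reads, a pooled fold of 0.849 (95% interval 0.827 to 0.870). The pooled fold of all measured protein-coding genes was higher, just above 1. By pooled reads the 61 genes thus lay below all genes, although their median lay above. The pooled Pol II value of each role given below is also under that of all genes. Without the 4 genes outside transport, 1 high and 2 low genes remained of 57. Under scaling to the median 1 kb bin the median log2 became 0.15 against 0.04 for all genes, so the median of the 61 genes stayed above that of all genes while both changed sign.

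**Figure D1:**
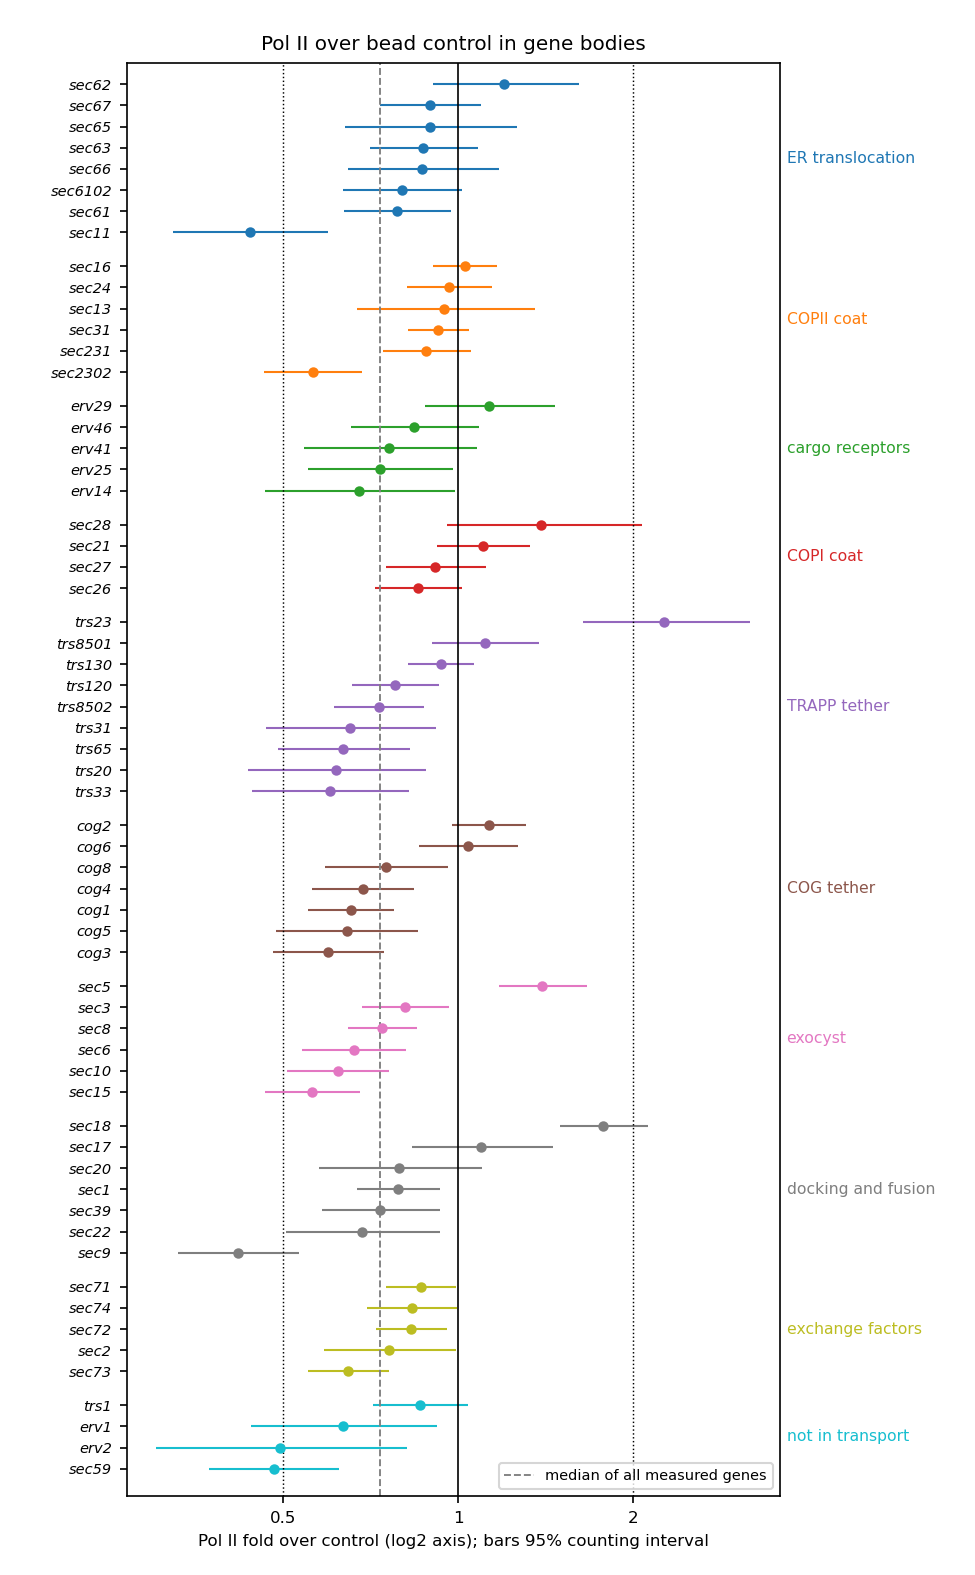
Pol II fold over the bead control in the body of each of the 61 genes, grouped by role, on a log2 axis with bars for the 95% counting interval. The dashed line is the median of all measured genes at 0.733, dotted lines are the 0.5-fold and 2-fold thresholds, and 1 gene, trs23, lies above the upper one. Scaling to the median 1 kb bin would move every point to the right by 0.49 on the log2 scale.

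The genes of ER entry spanned sec11 to sec62. Pooled over the 8 genes, the Pol II fold was 0.835 (0.766 to 0.910). sec62 had the highest fold of them at 1.20. sec61, the pore-forming subunit of the translocon, lay at 0.784 (0.636 to 0.972), and its annotated Sec61-like relative sec6102 at 0.80. sec63 (0.871), sec66 (0.867), sec67 (0.896) and sec65 (0.894), the last a putative subunit of the signal recognition particle that brings nascent chains to the ER, stood close together. All 1050 bases of sec65 also lie in the transcript of prp18, so its value cannot be assigned to sec65. The low gene was sec11, the signal peptidase subunit that is catalytic in budding yeast (chrII:499350-500762, plus strand). Its body held 81 control, 95 Pol II and 73 Med7 reads, so the control exceeded Pol II at equal depth, at 90.9 against 39.9 RPM per kb. This gave a Pol II fold of 0.439 (0.323 to 0.597), 0.616 under median-bin scaling, where no gene of the 61 was low, and 0.289 over the coding span alone. The coding span also lowered sec62 to 0.715, and sec67, which shares 1747 bases with rpa49, stood at 0.675 without them.

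COPII genes lay above the genome median with 1 exception. Their pooled Pol II fold was 0.903 (0.847 to 0.964) over 6 genes. sec16, the scaffold of ER exit sites, was at 1.03, sec24 at 0.966, sec13 and sec31, which form the outer cage, at 0.947 and 0.925, and sec231, encoding the inner coat subunit Sec23a, at 0.883 (0.742 to 1.05). sec2302, which encodes Sec23b, was at 0.562 (0.463 to 0.683). Within the same pair of libraries the sec231 fold was 1.57 times that of sec2302 (1.21 to 2.04), a ratio that no scaling changes. The sec231 body held 186 control and 439 Pol II reads, and sec2302 held 179 and 269, so the genes differed in Pol II reads at like control reads.

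Sec23 was 1 of 5 gene pairs with a shared or like product that were compared in this way. The Pol II ratio was 0.980 (0.711 to 1.35) for sec61 over sec6102. It was 1.04 (0.853 to 1.27) for sec71 over sec72, whose products both hold a Sec7 domain, the domain that activates Arf GTPases. Both intervals include 1, and they would still allow a ratio as low as 0.711 or as high as 1.35. The exchange factor genes sec73 and sec74 had a ratio of 0.777 (0.610 to 0.990). trs8501 over trs8502, both encoding a Trs85 subunit of the TRAPP tether, gave 1.52 (1.15 to 2.02), and 1.92 (1.36 to 2.70) once the bases that either shares with a neighbour were left out. For Med7 in the promoter windows the interval of every one of the 5 ratios included 1.

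The erv genes grouped here as cargo receptors have products annotated as a cargo receptor, a cornichon family protein or COPII-coated vesicle-associated proteins. Pooled over erv14, erv25, erv29, erv41 and erv46, the Pol II fold was 0.853 (0.751 to 0.969). erv29, named for a receptor of soluble cargo in budding yeast, led with 1.13, and erv14, of the cornichon family, was lowest at 0.675 (0.465 to 0.990). The 4 coatomer genes of the COPI coat pooled to 0.980 (0.887 to 1.08), the highest value among the roles. sec28, the epsilon subunit, was at 1.39 (0.957 to 2.07), sec21 (gamma) at 1.11, sec27 (beta prime) at 0.913 and sec26 (beta) at 0.854. No coatomer gene was high or low. Median-bin scaling moves all role values up together by 0.49 on the log2 scale and leaves their order as it is.

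Tethers hold an arriving vesicle at its target membrane. TRAPP genes pooled to 0.869 (0.811 to 0.932), but the value rests in part on trs23, which encodes a TRAPP subunit and was the only gene of the 61 called high. The trs23 body (chrII:4008115-4008829, plus strand) held 44 control, 266 Pol II and 44 Med7 reads, a Pol II fold of 2.26 (1.64 to 3.19). For Med7 the body was at 0.906 (0.583 to 1.41). The first 300 bp held 10 control and 30 Pol II reads, and the next 400 bp held 32 and 232, so the excess lay in the later part of the gene. The last 113 bp also belong to the transcript of rpp102, a ribosomal protein gene with a Pol II fold of 2.32, and without them trs23 was at 1.96 (1.37 to 2.89). With duplicate reads collapsed it was at 1.85. Its promoter window was in turn low for Pol II, at 0.443. The other TRAPP genes ran from 0.602 (trs33) to 1.11 (trs8501).

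COG and exocyst genes had pooled Pol II folds below those of both coats, and lower ones once shared bases were left out. The COG complex, a tether at the Golgi, pooled to 0.817 (0.760 to 0.879) over 7 genes, and the exocyst, which tethers vesicles at the plasma membrane, to 0.791 (0.738 to 0.848) over 6. Leaving out bases shared with other transcripts brought these to 0.632 and 0.653. cog6 moved from 1.04 to 0.590 (0.465 to 0.751) and cog2 from 1.13 to 0.738 (0.490 to 1.13). sec3 shares 3436 of its bases, and the few that remain gave 1.59 (0.722 to 3.97) in place of 0.811. A shift of Pol II reads by position was plain at sec5 (chrIII:1413420-1416194, minus strand), an exocyst gene whose last 258 bp overlap the histone H2B gene htb1, which had a Pol II fold of 5.21. Over the whole body sec5 held 168 control, 627 Pol II and 124 Med7 reads and a fold of 1.40 (1.18 to 1.66). It fell to 0.821 (0.676 to 1.00) without the shared bases, and its coding span alone gave 0.869. The Pol II reads of sec5 lay at its htb1 end: the first 2400 bp held 141 control and 247 Pol II reads, and the next 400 bp, which reach just past the transcript, held 30 and 422.

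Docking and fusion held both the second highest and the lowest Pol II fold of the 61 genes. sec18 encodes the ATPase known in mammals as NSF, which takes SNARE complexes apart after fusion. Its body (chrI:4718513-4721135, minus strand) held 158 control, 751 Pol II and 178 Med7 reads. The Pol II fold was 1.78 (1.495 to 2.12), just inside the band below 2-fold, with no base shared with another transcript. It stayed at 1.77 with duplicates collapsed, and became high at 2.497 under median-bin scaling. sec17, encoding alpha-SNAP, the partner of Sec18, was at 1.10 (0.833 to 1.46). sec9, named for a SNARE of the plasma membrane in budding yeast (chrII:3941984-3944037, minus strand), held 135 control, 151 Pol II and 97 Med7 reads. Its fold of 0.418 (0.329 to 0.532) was the lowest, and it became 0.588 under median-bin scaling. The SNARE genes sec20 and sec22 were at 0.792 and 0.683, sec1, whose product binds SNAREs and whose body shares 3595 bases with ssb2, at 0.789, and sec39, a subunit of an ER tether in budding yeast, at 0.734.

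Exchange factors switch on the small GTPases of the pathway. sec73 lay at 0.647, below the genome median of 0.733, and sec2, sec71, sec72 and sec74 lay above it, from 0.760 to 0.863. None was above 1 as scaled here, where 1165 of the 4967 measured genes were. The pooled value was 0.793 (0.738 to 0.853). The 4 genes outside transport pooled lower, at 0.678 (0.595 to 0.774), and supplied 2 of the 4 low genes. sec59 held 111 control and 143 Pol II reads, a fold of 0.482 (0.373 to 0.623). erv2 held 31 and 41, a fold of 0.495 (0.303 to 0.816). Both lost the call when duplicates were collapsed or reads were not moved, and all 4 low calls were lost under median-bin scaling.

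**Figure D2:**
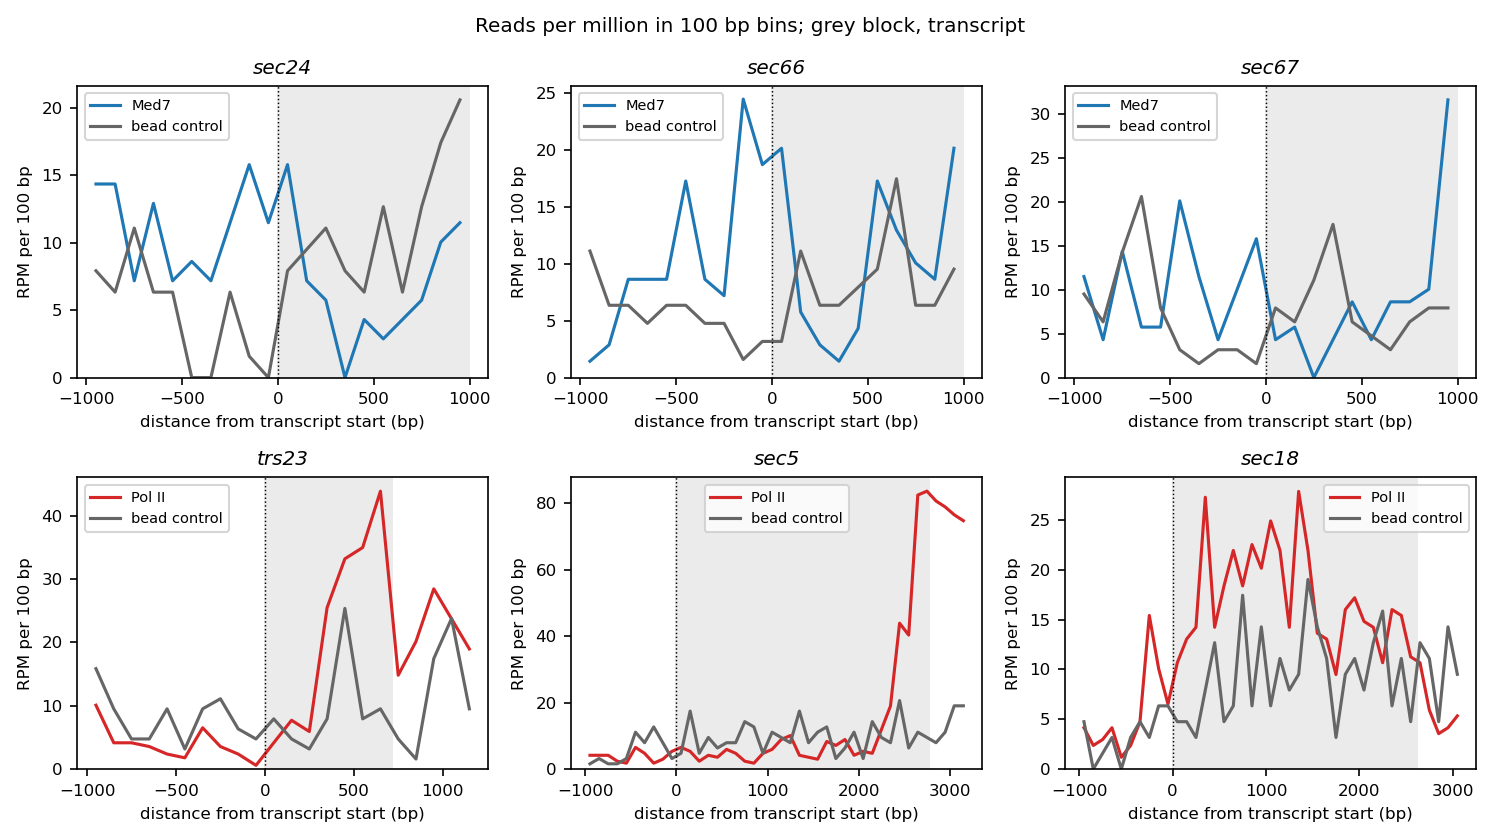
Normalised reads (RPM) in 100 bp bins along 6 genes, by distance from the transcript start, with the transcript shaded. The upper row sets Med7 against the bead control at sec24, sec66 and sec67, where Med7 exceeded the control in the last 200 bp before the start, while farther upstream either line can be the higher one. The lower row sets Pol II against the control at trs23, sec5 and sec18: Pol II lies above the control in the later part of trs23 and at the htb1 end of sec5, and in most but not all bins of sec18. Median-bin scaling would raise the Pol II lines and leave these shapes as they are.

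Along the gene body, Pol II rose towards the end of the secretory genes. In the pooled bodies, the fold was 0.708 (0.676 to 0.741) in the first part when each body is cut into 3 equal parts, 0.853 in the middle and 0.980 (0.938 to 1.02) in the last. Other genes went from 0.911 over 0.995 to 1.16. The last part was above the first in 49 of 60 genes (81.7%), compared with 69.4% of the 4840 genes with enough control reads. Around the transcript start, the pooled Pol II fold was lowest at 250 to 299 bp, at 0.563 (0.460 to 0.690). Around the transcript end it was highest in the 50 bp that begin 100 bp before it, at 1.37 (1.13 to 1.67). Since 34 of the 61 transcripts (55.7%) overlap another coding transcript, against 42.7% of all, reads near the ends can belong to a neighbour. The part played in the slope by these overlaps, or by the greater transcript length of the 61 genes, was not tested.

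**Figure D3:**
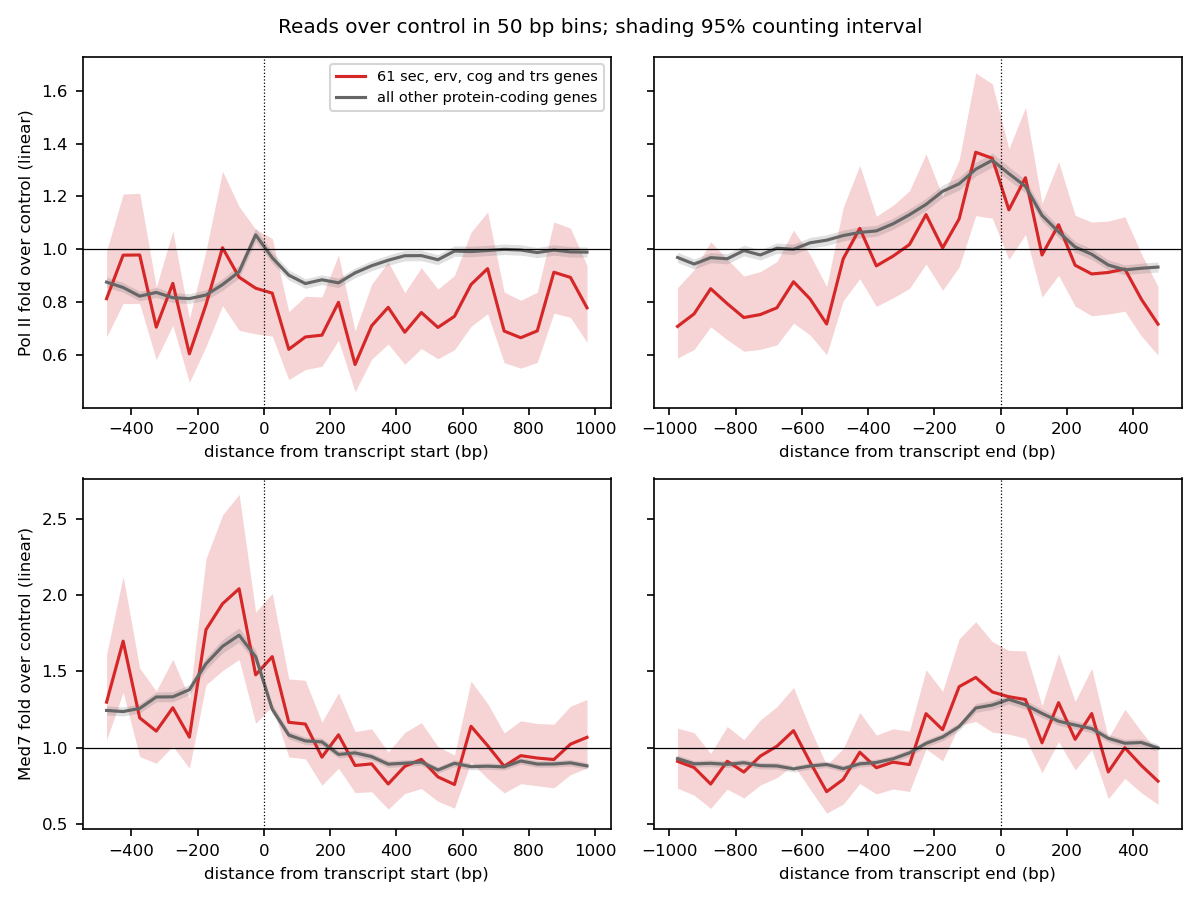
Pooled Pol II and Med7 folds over the bead control in 50 bp bins around transcript start and end, for the 61 genes and for all other protein-coding genes. Med7 has its maximum just upstream of the start in both sets, 2.04-fold and 1.74-fold, with a lower rise around the end, and Pol II in the 61 genes is lowest at 250 to 299 bp and highest shortly before the end. Under median-bin scaling the Pol II lines would lie 0.49 higher on the log2 scale.

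Mediator was above the bead control at most of these promoters, to the extent seen across the genome. In the promoter windows 60 of the 61 genes were measured. The trs1 window was left out because 84.8% of its positions are unique. Of the 60 genes, 9 were high for Med7 (15%) against 14.1% of the 4943 genes measured, and 0 were low against 0.223%. The median fold was 1.32 (log2 0.39) against 1.37 (log2 0.45) for all genes, and the pooled fold 1.40 (1.31 to 1.49) against 1.36. The fold exceeded 1 in 52 of the 60 windows, and the lower bound did so in 14. Over all 4943 genes these counts were 4061 and 1269. Since the median window held 26 control reads, single genes are known only roughly. Median-bin scaling moved the Med7 median of all genes by 0.01 on the log2 scale.

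sec24 had the highest measured Med7 fold. Its window (chrI:4799095-4799694) held 10 control, 56 Pol II and 49 Med7 reads, a Med7 fold of 4.44 (2.22 to 9.83) that ranked 9 among all measured genes. The control was low there, where the median window held 26 control reads. The 49 Med7 reads were fewer than the 67 of sec66. They equalled those of sec2302, which had a fold of 1.27 from 35 control reads. The sec24 window is shared with the divergent gene rtf1, whose start lies 467 bp away and whose own window gave 4.26. Its reads thus cannot be assigned to either gene. sec24 was also the only one of the 60 genes called high for Pol II in the promoter window, at 2.09 (1.06 to 4.60). Both calls of sec24 rest on the same 10 control reads. Its 56 Pol II reads were fewer than the 76 of sec63, which had a fold of 0.861 from 33 control reads. In these windows 4.33% of all genes were high for Pol II and 14% were low, and 5 of the 60 genes (8.33%) were low: trs23, sec59, sec22, cog2 and sec2, from 0.443 to 0.490.

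Of the 9 genes with high Med7, 3 encode subunits of the Sec62/Sec63 complex, which guides proteins into the ER after their synthesis. The sec66 window (chrII:1176232-1176831) held 15 control, 54 Pol II and 67 Med7 reads, a Med7 fold of 4.05 (2.29 to 7.63). Med7 stood at 24.4 RPM from 200 to 101 bp before the start and at 18.7 RPM in the next 100 bp, which hold both TATAAA matches, from 17 and 13 reads. The control had 1 and 2 reads there, so the excess in these bins is known only roughly. The sec66 fold was 6.49 in the narrow window from 250 bp before to 50 bp after the start, and 2.56 with reads not moved. The sec67 window (chrI:3924128-3924727) held 13 control, 31 Pol II and 46 Med7 reads, a fold of 3.21 (1.70 to 6.47). The sec67 fold became 6.95 (2.10 to 36.1) in the narrow window. The full window reaches up to the divergent gene lsm6, whose start lies 501 bp away. Of its 100 bp bins, the one nearest lsm6 held the most Med7 reads, 14 against 2 in the control. The bin just before the sec67 start held 11 against 1. The reads of the full window thus cannot be assigned to sec67 alone. The sec62 window (chrI:3603575-3604174) held 13, 54 and 40 reads, a fold of 2.79 (1.46 to 5.68), and 330 of its bases lie in the transcript of pep7. Without those bases sec62 was at 5.21 (1.78 to 20.7), and with reads not moved at 1.91, no longer high. sec63 itself was at 1.26 (0.790 to 2.04). The other translocation genes lay at 1.42 for sec61, 1.81 for sec6102, 0.884 for sec65 and 0.746 for sec11, none of them with an interval clear of 1. The role as a whole pooled to 1.60 (1.34 to 1.92).

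The other high genes came from 5 roles. sec26 of the COPI coat held 17 control and 44 Med7 reads, a fold of 2.35 (1.31 to 4.38). The receptor gene erv29 held 18 and 44, a fold of 2.22 (1.25 to 4.07). trs31 of TRAPP held 21 and 49, a fold of 2.11 (1.24 to 3.71), with 374 bases of its window in the transcript of sct1. cog5 held 18 and 41, a fold of 2.06 (1.16 to 3.82), and sec39 held 28 and 63, a fold of 2.04 (1.29 to 3.31). These 5 lie close to the threshold, and the narrow window kept the call for sec39 alone among them. Leaving out bases in other transcripts ended the calls of sec39, at 1.93 (1.15 to 3.32), and of trs31. Just outside, erv1 was at 1.96 (1.20 to 3.28) and sec6 at 1.91 (1.07 to 3.56). By letters, 4 of the 9 high promoters (sec24, sec26, cog5 and sec39) hold GTAAACA, 3 hold TATAAA and 2 hold CCAAT, against 14.8%, 44.4% and 35.3% of all promoters. With 9 promoters nothing particular to them is drawn from these counts.

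**Figure D4:**
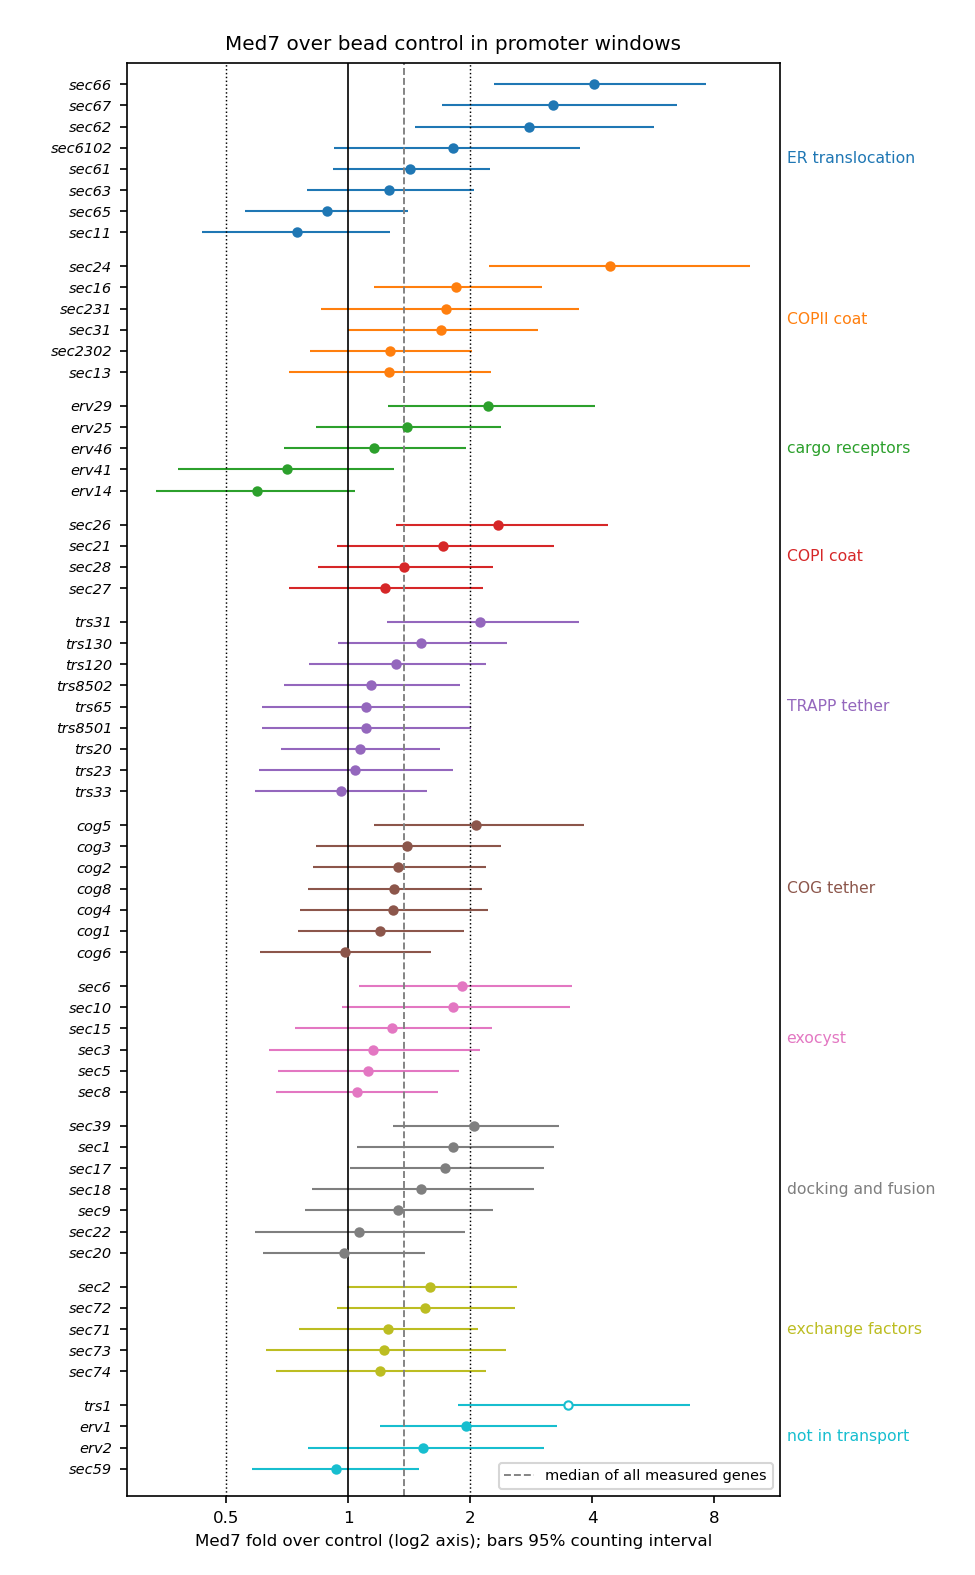
Med7 fold over the bead control in the promoter window of each gene, grouped by role, on a log2 axis with bars for the 95% counting interval. The 9 genes called high reach from 2.04 (sec39) to 4.44 (sec24), and most of the other intervals include 1.

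By role, COPII promoters pooled highest for Med7 at 1.75 (1.41 to 2.18). That value rests in part on the sec24 window shared with rtf1, with 49 of the 255 Med7 and 10 of the 132 control reads. All 6 lay above 1, as did 4061 of the 4943 genes measured. COPI promoters pooled to 1.59 (1.22 to 2.08) and those of docking and fusion to 1.45 (1.20 to 1.76). Exchange factors were at 1.38, COG at 1.31, exocyst at 1.30, TRAPP at 1.23 (1.04 to 1.45) and cargo receptors at 1.11 (0.877 to 1.40), or 0.857 in the narrow window. The lowest gene was erv14, where 35 control and 23 Med7 reads gave 0.596 (0.336 to 1.04), and 333 bases of the window lie in the transcript of asc1, without which it was at 0.982 (0.413 to 2.35). Next came erv41 at 0.705 (0.379 to 1.29) and sec11. The sec11 window overlaps pmp1 and rps1202, and in the narrow window, or without those bases, it was low at 0.429. Intervals of neighbouring roles overlap throughout this order.

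Med7 was highest before the start and rose again at the transcript end. Summed over the 61 genes, its highest fold around the start was 2.04 (1.58 to 2.66) from 100 to 51 bp upstream, against 1.74 (1.69 to 1.79) in the other genes. The bead control was lowest in the same bin, at 2.26 RPM per gene, and its part in the Med7 maximum was not tested. Past the start Med7 was lowest at 550 to 599 bp, at 0.760 (0.605 to 0.953). Around the transcript end it reached 1.46 (1.17 to 1.83) from 100 to 51 bp before the end and 1.32 (1.06 to 1.63) from 50 to 99 bp after it, against a highest value of 1.32 (1.29 to 1.35) in the other genes. When bodies are cut into 3 equal parts, Med7 stood at 0.934, 0.858 and 0.995. Reads at these ends can belong to a neighbour, as for Pol II. In gene bodies 0 genes were high and 0 low, against 0.524% and 0.685% of all, and the pooled Med7 fold was 0.928 (0.901 to 0.956) against 0.913 for all genes. COPII genes were lowest in the body, at 0.761 (0.702 to 0.824), although their promoters pooled highest with sec24 included. Promoters with a divergent upstream neighbour (31 measured) and with a tandem one (29) had like Med7 levels relative to control, 1.40 (1.28 to 1.53) and 1.39 (1.27 to 1.53), with 4 and 5 high genes.

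Med7 at the promoter and Pol II in the body were only loosely related among these genes. Across the 60 genes with both values Pearson's r was 0.18 and Spearman's rho 0.19 on log2 folds, against 0.09 and 0.10 over 4894 genes. Both folds share the control library and are given as a description across genes, which are not replicates. Above the genome median for Pol II were 38 of the 60, above that for Med7 28, and above both 20. Of the 9 genes with high Med7, 7 lay above the Pol II median. None was high for Pol II, a call that only 1 of the 61 genes had, against 6.74% of all genes. In turn trs23, sec18 and sec5, with the highest Pol II folds, had Med7 promoter folds of 1.04 (0.601 to 1.81), 1.51 (0.815 to 2.88) and 1.12 (0.672 to 1.87).

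**Figure D5:**
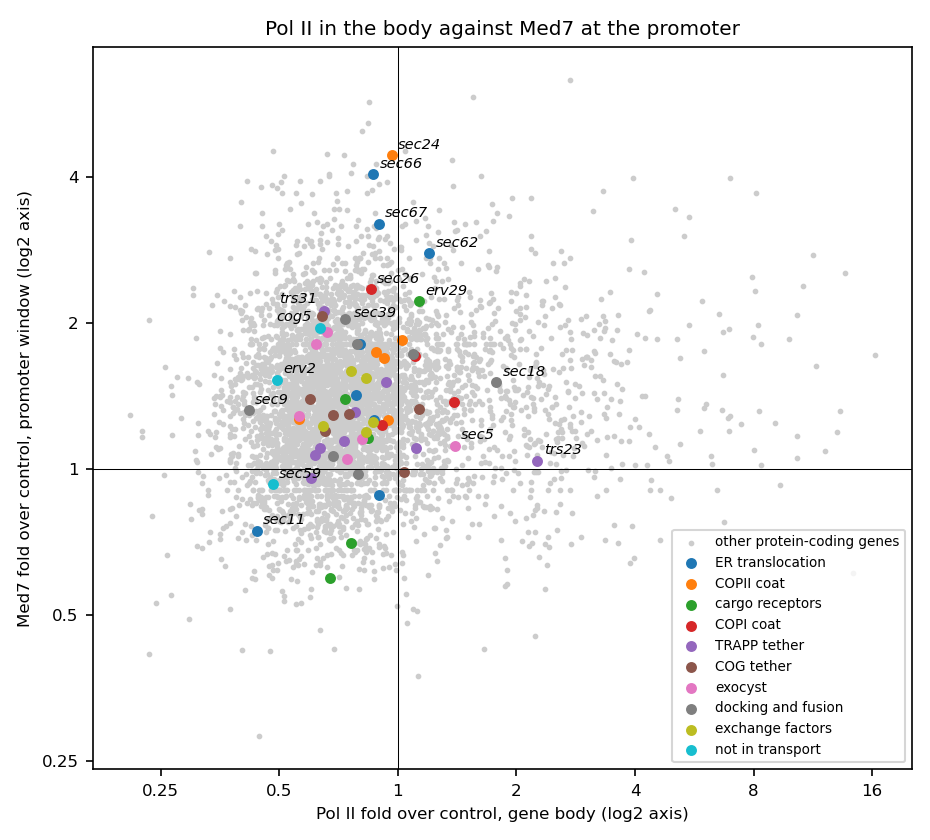
Pol II fold in the gene body against Med7 fold in the promoter window, both over the bead control on log2 axes, for the genes coloured by role and for all other measured genes in grey. The Med7-high genes sec24, sec66, sec67 and sec62 lie near a Pol II fold of 1 as scaled here, and trs23 lies near a Med7 fold of 1. Median-bin scaling would shift all points right by 0.49 on the log2 scale.

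Other genes of the pathway with different symbols were set beside these. From a list of 73 symbols, 66 were found in the annotation. By annotated product 2 of the 66 lie outside secretion, gcs1 (a glutamate-cysteine ligase) and aps1 (a diadenosine hexaphosphate hydrolase), and neither was high or low. For Pol II 4 of the 66 were high (6.06%, against 6.74% of all genes) and 1 was low. bip1, the ER chaperone BiP, reached 5.12 (4.39 to 6.00), above every one of the 61 genes. psy1, a SNARE of the plasma membrane, was at 2.34, with 419 bases shared with gbs1. sss1, the gamma subunit of the translocon, was at 2.04 (1.17 to 3.82) from 15 control reads, and the GTPase gene arf1 at 2.01. The low gene was ypt4 at 0.494. The median Pol II fold of the list was 0.810, close to the 0.792 of the 61 genes. Its pooled fold of 1.03 (1.00 to 1.06) leans on bip1: it was 0.915 (0.888 to 0.942) without that gene, against 0.849 for the 61 genes, and 1.03 without gcs1 and aps1. For Med7 13 of 65 were high (20%, against 14.1% of all genes), among them clc1, the clathrin light chain, at 2.93 (1.54 to 5.94), arf6 at 2.66, the ER chaperone gene cnx1 at 2.61 and the GTPase gene ypt1 at 2.22. sss1 and psy1 were high for both Pol II in the body and Med7 in the promoter window. The sss1 body was also high for Med7, at 2.60 (1.41 to 5.03), over the same 15 control reads, so its Pol II call is uncertain. Among the 61 genes only 1 was high for Pol II, so the absence of this combination there is not read as a difference.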

How the data were processed

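Each library was deposited by the authors as a list of aligned reads, with read positions (first and last base) and strand, no score and no normalisation. The submitters' processing notes name Bowtie 0.12.7. The genome build is not given in the sources used here. Read starts fit assembly ASM294v3: of the reads of 45 bases, 0 began at a sequence that is not unique, and the lists thus hold uniquely placed reads only.

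Reads were counted at the 5' end moved to the fragment's middle (158, 153 and 139 bp for control, Pol II and Med7, from strand cross-correlation, weak for control and Med7). Duplicates, 12.9%, 17.0% and 16.4% of nuclear reads, were kept. RPM used nuclear reads outside the ribosomal DNA. Folds have exact conditional binomial 95% intervals. Ratios between 2 genes have exact conditional odds ratio intervals. Medians of log2 folds used a pseudocount of 0.5 reads. Gene body counts of members have a median of 135 control reads.

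The genes described in full are those high or low and the 3 highest and lowest of each measure, others being given by role or pair. The naming rule, the roles and the lists were chosen with earlier results of these data known, although the rule reads symbols only, and the gene pairs after seeing the data. Alternatives were duplicates, scaling, read shift, minima, windows, shared bases, thresholds and pseudocount. Counting and intervals ran in Python 3.11.15 with scipy 1.17.1 and numpy 2.4.6; tables used pandas 2.3.3 and plots matplotlib 3.10.9.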

Additional observations from a re-analysis of the deposited data

How the results depend on the processing

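No paired analysis was possible because each group has 1 library and no result comes from a test. Depth limits the promoter windows most: the median window held 26 control reads, and the smallest fold whose interval cleared 1 was 1.73 (sec17, 22 control reads). For Pol II in bodies (1 high, 4 low, median log2 -0.34, pooled 0.849), collapsing duplicates gave 0 high, 2 low, -0.22 and 0.895. Median-bin scaling gave 2, 0, 0.15 and 1.19. Leaving out shared bases gave 0 high, median -0.42 and pooled 0.811, and the coding span alone -0.49 and 0.808. Unmoved reads gave 2 low, and a 1.5-fold threshold 2 high and 17 low. At that threshold the high and the low share were both smaller than those of all measured genes. Over all genes, median-bin scaling turned 335 high and 576 low into 565 and 71, and collapsing duplicates left 335 and 330. For Pol II in promoter windows (1 high, 5 low, median -0.46, pooled 0.809), collapsing duplicates gave 1 low, -0.31 and 0.880, and median-bin scaling 6 high, 0 low, 0.027 and 1.14. That scaling called 10.7% of all genes high and 2.57% low in these windows. Unmoved reads gave 3 low, the narrow window a median of -0.35, and leaving out other transcripts 3 low and 0.742. A 1.5-fold threshold gave 3 high and 15 low, against 7.06% and 26.5% of all genes. For Med7 in bodies, the coding span gave 1 low, median -0.18 and pooled 0.871. A 1.5-fold threshold gave 1 high and 2 low, against 2.24% and 6.05% of all genes. For Med7 at promoters (9 high, 0 low, median 0.39, pooled 1.40), collapsing duplicates gave a median of 0.48, and the narrow window 1 low, 0.63 and 1.57. Leaving out other transcripts gave 1 low, and a 1.5-fold threshold 14 high, against 25.7% of all genes. The narrow window called 12 of 55 measured genes high, against 22.1% of all genes, and 5 of the 12 were shared with the 9. Unmoved reads called 8 of 60 high, against 12.0% of all genes, and 6 of the 8 were shared. Of 280 values for single genes and roles, 234 moved by less than their interval, 46 moved further and 0 changed the direction of a call. The cause of these moves was not tested.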

Other observations

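The control reads behind a promoter fold vary more than the Med7 reads do at the top of the list. sec16, sec61 and erv1 had 57, 55 and 54 Med7 reads in their windows, more than the 49 of sec24 or the 46 of sec67, but 28, 35 and 25 control reads against 10 and 13. The trs1 window, not measured because of repeated sequence, held 13 control and 50 Med7 reads, a fold of 3.49 (1.86 to 6.99). Leaving out bases shared with neighbours added cog5, at 0.427 (0.277 to 0.663), and sec1, at 0.459 (0.252 to 0.845), to the genes low for Pol II.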
